A study of Mus musculus with 18 samples.

Results

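The question asked of these data was whether loss of the kinase p110gamma changes the response of macrophages to interferon gamma (IFNg) and lipopolysaccharide (LPS), gene by gene. Bone marrow of C57BL/6 mice aged 8 weeks was the source of the macrophages whose RNA was sequenced. The mice were wild type (WT) or p110g-/-, lacking p110gamma, the subunit that Pik3cg encodes. M-CSF, which drives macrophage growth, was given to every culture, at 50 ng/ml for the first 6 days and at 20 ng/ml afterwards. The 4 groups compared were WT M-CSF and p110g-/- M-CSF (M-CSF alone for 24 h) and WT IFNg/LPS and p110g-/- IFNg/LPS (M-CSF with IFNg and 100 ng/ml LPS for 24 h). Each group held 3 libraries, numbered 1 to 3, so that 12 of the 18 libraries of the series entered the comparison. The remaining 6 came from cultures with IL-4 and entered only the estimate of the spread between libraries. The labels describe the loss as p110g-/- in the animals, which is not restricted to macrophages, and leave unsaid whether each library had an animal of its own. P-values therefore measure the spread between libraries, which may be technical.

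For each gene the interaction was the genotype difference (p110g-/- minus WT) in IFNg/LPS minus the genotype difference in M-CSF, on the scale of log2(value + 1). The same number is the IFNg/LPS response of p110g-/- cells minus that of WT cells. A positive interaction means that p110g-/- cells gained more, or lost less, of a transcript with IFNg/LPS than WT cells did. The members were chosen by level alone: 15627 of the 16474 genes of the table had a normalised signal of at least 10 in at least 3 libraries. A gene passed at a Benjamini-Hochberg adjusted p under 0.05 over all 15627 genes. Differences are given on the log2 scale with their standard error (SE), and levels as normalised signal in libraries 1, 2 and 3 of a group, in that order.

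Phosphoinositide 3-kinase gamma is the class I PI3K of myeloid cells that works mainly downstream of G protein-coupled receptors and of Ras. It makes phosphatidylinositol trisphosphate at the plasma membrane, a lipid that recruits Akt and guanine nucleotide exchange factors and that phosphatases such as SHIP1 and the INPP4 enzymes turn over. LPS is bound by CD14 and passed to the TLR4 and MD-2 complex, which activates NF-kB, MAP kinases and interferon regulatory factors. IFNg acts through the kinases JAK1 and JAK2 and, together with LPS, drives the cytokine, nitric oxide and antigen presentation genes of inflammatory macrophages.

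The 12 libraries held 40.1 to 69.6 M (1e6) reads over the genes of the table, and a count of 3 reads, which a true count may reach where 0 was seen, was a signal of 2.30 to 4.74. Pik3cg itself stood at 5308, 5330.3 and 4994 in WT and at 1888, 2046 and 1966 in p110g-/- cells with M-CSF alone. It stood at 3559.5, 2309 and 2604 in WT IFNg/LPS and at 3691, 1410.5 and 2037 in p110g-/- IFNg/LPS. The library labelled p110g-/- IFNg/LPS number 1, at 3691, was above all 3 WT IFNg/LPS libraries, while numbers 2 and 3 were below them. Results are therefore given with and without it, and its label was not tested. The genotype effect of Pik3cg did not pass in IFNg/LPS (log2 -0.34 ± 0.235 SE, adjusted p = 0.37). In the same library H60a, a gene far apart between the genotypes, stood at 2546, beside 2576 and 2937 in the other p110g-/- IFNg/LPS libraries and 145, 134 and 133 in WT. Cyp4f18 stood there at 46.5, beside 19.9 and 26.3, and at 291, 239 and 204 in WT. Cysltr2 stood at 12.8, beside 7.6 and 15.6, and at 1764, 1048 and 936 in WT. The interaction of Pik3cg was 1.07 ± 0.33 (SE, adjusted p = 0.1) and 0.69 without that library (adjusted p = 0.086). Libraries numbered 1 also deviated together from their group means, with correlations over genes of 0.165 to 0.546 between groups. The correlations were 0.087 to 0.361 for libraries numbered 2 and 0.002 to 0.256 for those numbered 3.

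Macrophage markers (10 genes, led by Lyz2) summed to 592779 to 1067672 in the 12 libraries, against at most 38177.5 for any of the 9 lists of markers of other cell types. Among those lists the dendritic cell markers (10 genes, led by Itgax, none at 0) summed to 7865 to 10101 in WT IFNg/LPS and to 17325 to 25970.3 in p110g-/- IFNg/LPS, and to 9746 to 27326 and 20970.4 to 38177.5 in M-CSF. The gap in IFNg/LPS lay in Ccr7: without it the other 9 summed to 6175 to 7535 in WT and 5987 to 10897 in p110g-/- IFNg/LPS, which overlap. Kmo was the only one of the 10 to pass the interaction, at -1.98 ± 0.42 (SE, adjusted p = 0.022). Neutrophil markers (12 genes, led by Lcn2) summed to 9715 to 23177 in WT and 3081 to 16817 in p110g-/- IFNg/LPS, and to 8002 to 35524 and 11317.5 to 29351 in M-CSF. Fibroblast markers summed to 310.0 to 372 and 345.5 to 602 in IFNg/LPS, and to 412 to 2584 and 1726 to 3766 in M-CSF. Markers of T and NK cells, with Gzma at 0 in all 12 libraries, summed to 478.5 to 492 and 308 to 362.5 in IFNg/LPS. The part of these marker lists in the results below was not tested. In bulk RNA, fewer cells of a type and less RNA per cell cannot be told apart.

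The interaction passed for 381 of the 15627 genes, or 2.44% of those tested, 159 higher (1.02%) and 222 lower (1.42%) in p110g-/- cells relative to WT cells. At an unadjusted p under 0.05 there were 2714. Most effects were moderate: the median absolute interaction of the genes that passed was 0.79, the lowest 0.29, and 59 higher and 80 lower genes reached 1 or more. Among the 371 of them with every group above the signal of 3 reads, the values ran from -4.46 for Cysltr2 to 4.28 for Inpp4b. The response to IFNg/LPS as a whole was far larger than its genotype dependence: 73.8% of genes passed in WT (36.3% higher, 37.5% lower) and 73.0% in p110g-/- cells (36.2% higher, 36.8% lower), and the standard deviation over genes was 1.70 and 1.72 for the responses against 0.51 for the interaction. With upper-quartile scaling the median response of all genes shifted by -0.14 in WT and -0.13 in p110g-/- cells, and 4848 genes passed higher and 6706 lower in WT, against 5676 and 5862. Of the genes that passed in both responses, 10074 went the same way and 62 went opposite ways.

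**Figure D1:**
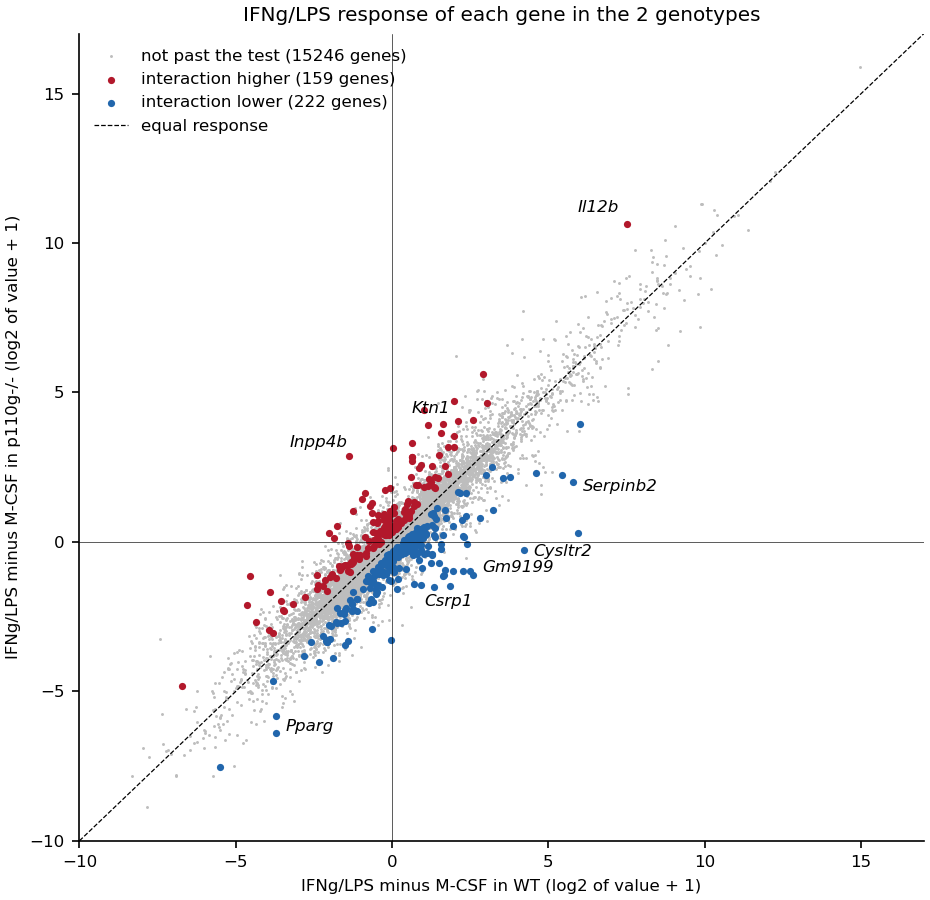
Each point is 1 of the 15627 genes tested, with its IFNg/LPS response (IFNg/LPS minus M-CSF, log2 of signal + 1) in WT on the x axis and in p110g-/- on the y axis. Genes whose interaction passed, 159 higher and 222 lower, are coloured and lie away from the diagonal of equal responses, with Inpp4b and Il12b above it and Cysltr2 and Csrp1 below it.

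The count of 381 depended on the libraries. It was 527 (3.37%) without the library labelled p110g-/- IFNg/LPS number 1, with 319 of the 381 among them, and 1708 (10.9%) with the libraries numbered 2 and 3 only, with 365 among them. Leaving out other libraries moved it by over 1.5 times in 7 cases: it was 633 without WT IFNg/LPS number 1, 212 without WT IFNg/LPS number 2, 211 without p110g-/- IFNg/LPS number 2, 183 and 202 without p110g-/- M-CSF numbers 2 and 3, and 190 and 206 without WT M-CSF numbers 2 and 3. All 381 kept their sign whichever of the 12 libraries was left out, and 142 passed each time.

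Sorted by where the genotypes differed, most of the 381 genes parted with IFNg/LPS. Of the 159 higher genes, 126 had a genotype effect that passed in IFNg/LPS and not in M-CSF, 12 the reverse, 11 passed in both with the same sign, 3 in both with opposite signs and 7 in neither. Of the 222 lower genes the counts were 177, 24, 7, 3 and 11. The genotype effect alone passed for 14.7% of all genes in IFNg/LPS (6.94% higher, 7.79% lower) and for 2.34% in M-CSF (1.06% higher, 1.27% lower), and since the interaction is made of these effects, the counts describe the genes and test nothing. Both shares rested in part on single libraries: the count of 2303 behind the former was 1466 without p110g-/- IFNg/LPS number 2, and the count of 365 behind the latter was 241 and 239 without p110g-/- M-CSF numbers 1 and 2. The 3 libraries of each genotype did not overlap in IFNg/LPS for 352 of the 381 (28.2% of all genes) and in M-CSF for 183 (21.6% of all genes). Without the library labelled p110g-/- IFNg/LPS number 1, 236 genes were higher and 291 lower, and 197 and 241 of them had a genotype effect that passed in IFNg/LPS and not in M-CSF, while for 14 higher and 16 lower genes it passed in neither.

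Sorted by the shape of the response, 59 higher genes went up with IFNg/LPS in both genotypes, by more in p110g-/- cells, and 48 went down in both, by less in p110g-/- cells. The other 52 had responses of opposite sign, both past the test for 23. Of the lower genes, 60 went up in both genotypes, by less in p110g-/- cells, 84 went down in both, by more in p110g-/- cells, and 78 had responses of opposite sign, both past the test for 29. Without the library labelled p110g-/- IFNg/LPS number 1, the counts that moved by over 1.5 times were the higher genes that went down in both, at 97, and the lower genes that went up in both, at 98.

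The clearest higher genes were ones at the same level in both genotypes until IFNg/LPS was added. Fam32a, a small nuclear protein of the splicing machinery, stood at 4861, 4693 and 4799.7 in WT and 4735, 4683 and 4948 in p110g-/- cells with M-CSF alone. With IFNg/LPS it stood at 3837, 4159 and 4099.8 in WT and at 8566, 8501 and 8759 in p110g-/- cells, all 3 of the latter above every other library. The interaction was 1.09 ± 0.075 (SE, adjusted p = 3.6e-06), with a response of -0.25 in WT and 0.85 in p110g-/- cells, both past the test. Ktn1, which encodes the endoplasmic reticulum receptor kinectin, stood in M-CSF at 1381, 1439.8 and 1460.3 for WT and 1456, 1548 and 1416 for p110g-/- cells, and in IFNg/LPS at 5237, 4231 and 3899 for WT and 23841, 26132 and 18118 for p110g-/- cells. It rose in both genotypes, by 1.63 in WT and 3.93 in p110g-/- cells, an interaction of 2.30 ± 0.17 (SE, adjusted p = 3.6e-06). Apbb3, an adaptor that binds amyloid precursor protein, lay between 218.5 and 265 in the other 9 libraries and at 818, 913 and 827 in p110g-/- IFNg/LPS, an interaction of 1.85 ± 0.15 (SE, adjusted p = 6.4e-06).

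Further genes of the 10 smallest p-values among the higher ones parted mainly with IFNg/LPS. Tagap1, whose M-CSF groups overlap, had an interaction of 1.37 ± 0.19 (SE, adjusted p = 0.0016), with 1938, 1409 and 1342 in WT and 4996, 3862 and 3824 in p110g-/- IFNg/LPS. Chd9, a chromatin remodeller, Itpr2, an inositol trisphosphate receptor of the endoplasmic reticulum, Foxp4, a forkhead factor, and Denr, a factor of translation reinitiation, had interactions of 0.82, 0.81, 0.81 and 0.69, with adjusted p of 0.0013, 0.0013, 0.0019 and 0.00049. None of the 4 passed a genotype effect in M-CSF, although the M-CSF libraries of the genotypes did not overlap for Chd9 and Itpr2, higher in p110g-/- cells, or for Denr, lower. All 4 were higher in 3 of 3 p110g-/- libraries than in any WT library in IFNg/LPS.

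**Figure D2:**
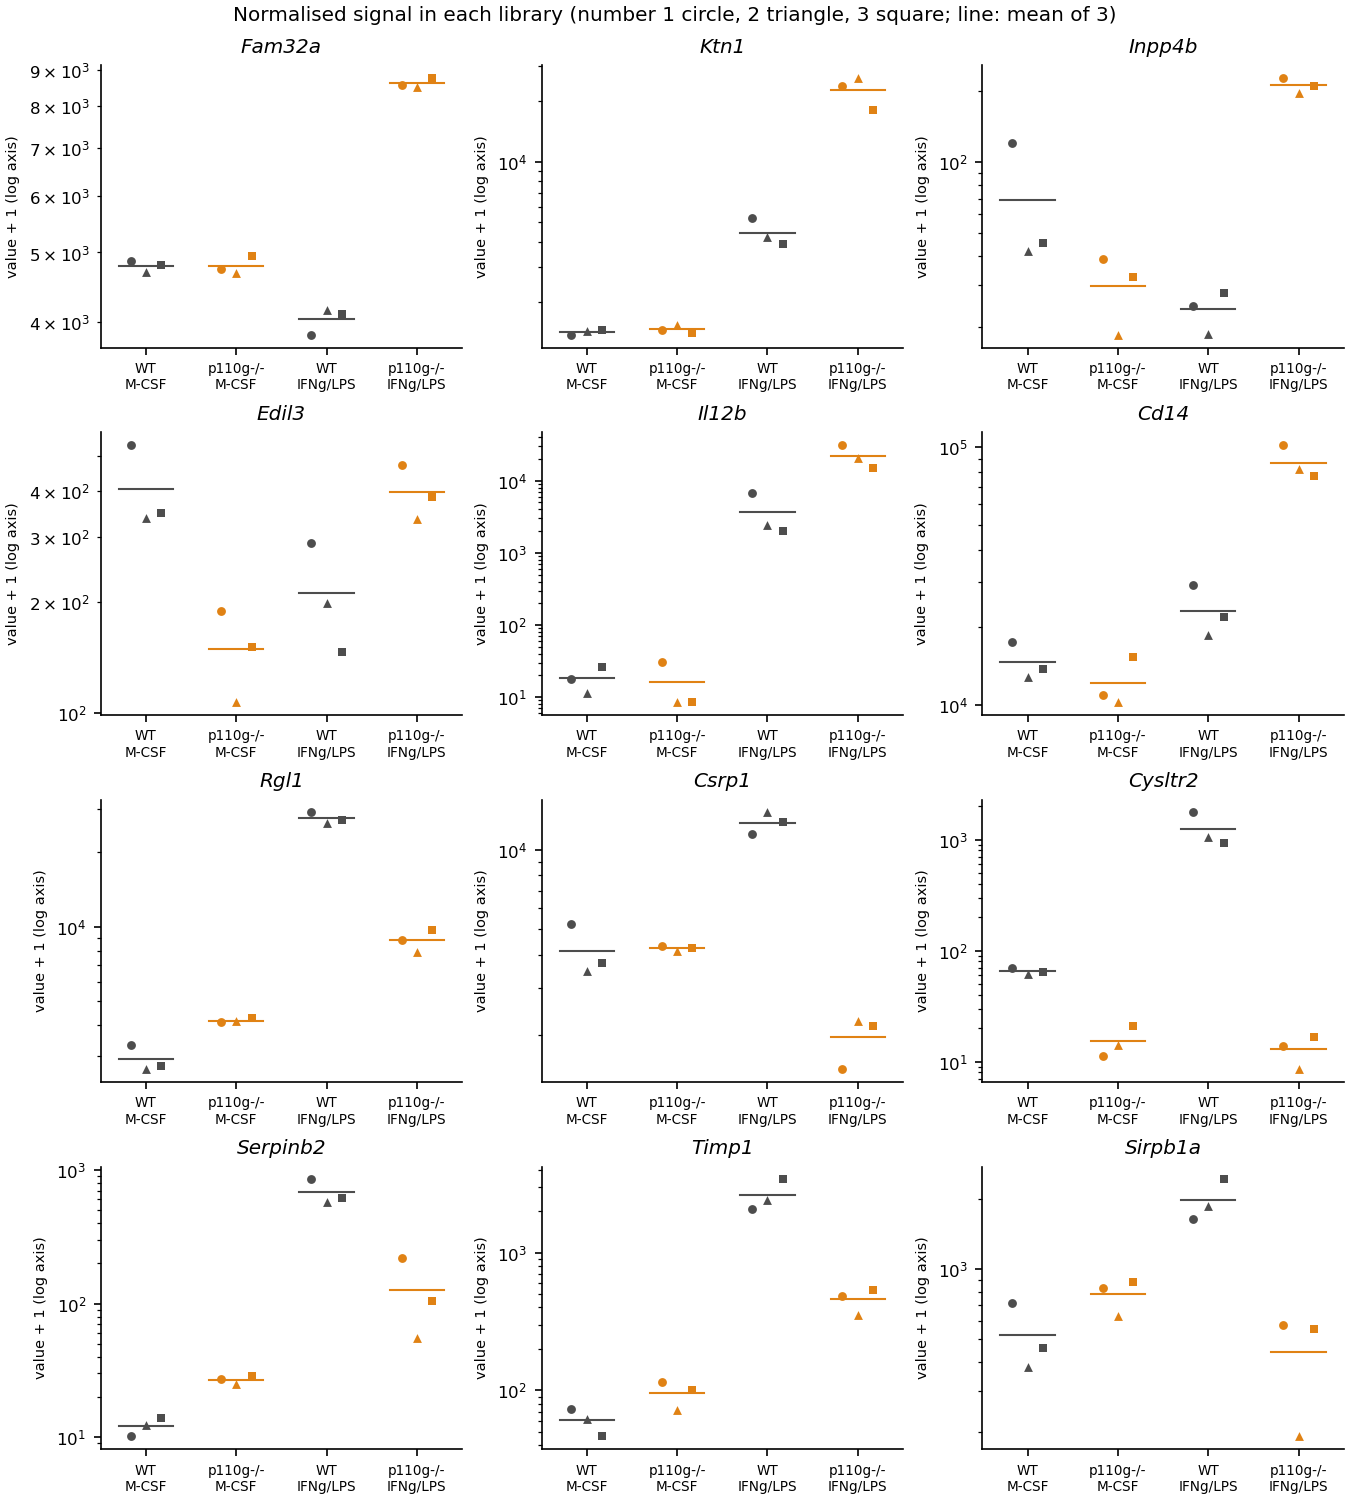
Normalised signal + 1 (log axis) of 12 of the genes described, in each of the 12 libraries, by genotype (grey WT, orange p110g-/-) and stimulus; circle, triangle and square are libraries 1, 2 and 3 and the line is the mean of 3. Fam32a and Ktn1 part between the genotypes in IFNg/LPS only, Edil3 changes order between the stimuli, and Csrp1 stands lower in p110g-/- IFNg/LPS than in every other group.

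The largest positive interaction was that of Inpp4b, which encodes a phosphatase that removes the 4-phosphate of phosphatidylinositol 3,4-bisphosphate and so acts on the lipids made by PI3K. Its signal was 119.8, 41.1 and 44.4 in WT and 37.9, 17.5 and 31.4 in p110g-/- cells with M-CSF alone, where the genotype effect did not pass (log2 -1.10 ± 0.38 SE, adjusted p = 0.18). With IFNg/LPS it was 23.6, 17.7 and 26.8 in WT and 227, 196 and 209.5 in p110g-/- cells. The p110g-/- IFNg/LPS libraries were above all others. Inpp4b fell with IFNg/LPS in WT (log2 -1.39 ± 0.38 SE, adjusted p = 0.0035) and rose in p110g-/- cells (log2 2.89 ± 0.38 SE, adjusted p = 4.2e-06), an interaction of 4.28 ± 0.53 (SE, adjusted p = 0.0007). Inpp4a, which encodes the enzyme of the same activity, did the reverse at a smaller size. It stood in M-CSF at 1838, 1898 and 1924 for WT and 2014, 2219.6 and 1871 for p110g-/- cells, and in IFNg/LPS at 2539, 2411 and 2423 for WT and 1902, 1721 and 1801 for p110g-/- cells, an interaction of -0.55 ± 0.090 (SE, adjusted p = 0.0049). These were the 2 that passed among the 21 tested genes for class I PI3K subunits and phosphoinositide phosphatases (9.52% against 2.44% of all genes), 1 in each direction, and the list's median interaction was -0.05 against 0.004 over all genes.

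Edil3, a secreted integrin ligand, was 1 of 3 higher genes whose genotype effect passed under both stimuli with opposite signs. It stood at 532, 336 and 348 in WT and at 187, 106 and 150.1 in p110g-/- cells with M-CSF alone, where it was lower in 3 of 3 libraries. With IFNg/LPS the order turned, with 288, 198 and 145 in WT and 469.9, 336 and 386 in p110g-/- cells. The genotype effect was -1.46 ± 0.24 (SE, adjusted p = 0.0029) in M-CSF and 0.96 ± 0.24 (SE, adjusted p = 0.016) in IFNg/LPS, and the interaction 2.41 ± 0.35 (SE, adjusted p = 0.0022). Tspan33, a tetraspanin, stood at 60.5, 60.7 and 47.4 in WT and 216, 146 and 113 in p110g-/- IFNg/LPS and had an interaction of 2.52 ± 0.49 (SE, adjusted p = 0.014). In M-CSF its order was the opposite, without overlap, at 102.2, 136.3 and 80.1 in WT and 57.5, 38.2 and 51.3 in p110g-/- cells. Igfbp4, which binds insulin-like growth factors, fell with IFNg/LPS from 7434, 10259 and 10247 to 542, 329 and 283 in WT and from 4876, 7024 and 7656 to 2306, 1400.0 and 1028 in p110g-/- cells. The fall was smaller in p110g-/- cells, an interaction of 2.54 ± 0.40 (SE, adjusted p = 0.0039). Ppfia3, a liprin scaffold, had an interaction of 2.70 ± 0.44 (SE, adjusted p = 0.0045), with 376, 187 and 158 in WT and 1089, 812 and 706 in p110g-/- IFNg/LPS. In M-CSF it was lower in p110g-/- cells without overlap, at 19.5, 10.9 and 20.9 against 38.4, 22.7 and 27.1 in WT.

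Serotonin receptor Htr2a and calcium pump Atp2b4 also passed, at 2.77 ± 0.68 (SE, adjusted p = 0.042) and 2.73 ± 0.68 (SE, adjusted p = 0.045), but not in every set of libraries. The genotype effect of Htr2a passed neither in M-CSF (log2 -1.335, adjusted p = 0.21) nor in IFNg/LPS (log2 1.43, adjusted p = 0.057). The call of Htr2a ended without any 1 of 10 libraries, all but p110g-/- M-CSF number 1 and p110g-/- IFNg/LPS number 1 (adjusted p 0.06 to 0.1). That of Atp2b4 ended without any 1 of 9, all but p110g-/- M-CSF number 1, WT IFNg/LPS number 1 and p110g-/- IFNg/LPS number 3 (adjusted p 0.062 to 0.11). Cyp4f18, which hydroxylates leukotriene B4, had another pattern. It was lower in p110g-/- cells under both stimuli, at 747, 922 and 829 against 26.4, 19.7 and 14.3 in M-CSF and at 291, 239 and 204 against 46.5, 19.9 and 26.3 in IFNg/LPS. It fell with IFNg/LPS in WT (log2 -1.77 ± 0.26 SE, adjusted p = 1.7e-05) and did not pass in p110g-/- cells (log2 0.55 ± 0.26 SE, adjusted p = 0.072), so the interaction was 2.32 ± 0.37 (SE, adjusted p = 0.0041).

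The ligand-sensing end of the LPS pathway held 1 gene at high level that passed clearly. Cd14, the LPS-binding co-receptor of TLR4, stood in M-CSF at 17509.5, 12837 and 13776 for WT and 10916, 10263 and 15304 for p110g-/- cells, and in IFNg/LPS at 29075, 18635 and 21898 for WT and 101670.1, 82307 and 77124 for p110g-/- cells. It rose by 0.65 in WT and by 2.85 in p110g-/- cells, an interaction of 2.21 ± 0.36 (SE, adjusted p = 0.0049), and the M-CSF groups overlap. Of the 26 tested genes of LPS and microbial sensing, Cd14 and Tlr5 passed higher and Tlr8 lower (11.5% against 2.44% of all genes), with a list median of -0.04. Tlr8, an endosomal sensor of RNA, went from 12549, 14279.5 and 14759.6 to 5451, 6047 and 5540.1 in WT and from 11447, 15893 and 15026 to 3725, 2510.5 and 3776 in p110g-/- cells, an interaction of -0.81 ± 0.20 (SE, adjusted p = 0.046). Its call ended without any 1 of 8 libraries (adjusted p 0.074 to 0.12), all but p110g-/- M-CSF number 1, WT IFNg/LPS number 1 and p110g-/- IFNg/LPS numbers 1 and 3. Tlr5, the flagellin receptor, stood at 29.2, 21.0 and 22.7 in WT and 5.7, 5.5 and 8.6 in p110g-/- cells with M-CSF alone and at or under the signal of 3 reads in all 6 IFNg/LPS libraries, so it has no fold there. Its call ended without any 1 of 11 libraries, all but WT IFNg/LPS number 1 (adjusted p 0.052 to 0.1).

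Among 20 inflammatory cytokine genes Il12b alone passed, higher (5.0% against 1.02% of all genes), and the list median was 0.21. Without the library labelled p110g-/- IFNg/LPS number 1 that median was -0.09 and none passed. Il12b encodes the p40 chain that IL-12 and IL-23 share. It stood at 16.9, 10.5 and 24.9 in WT and 29.9, 7.6 and 7.6 in p110g-/- cells with M-CSF alone, low and overlapping, and at 6736, 2405 and 2007 in WT IFNg/LPS and 30984, 20297 and 14779 in p110g-/- IFNg/LPS. It rose by 7.51 in WT and by 10.64 in p110g-/- cells, an interaction of 3.13 ± 0.78 (SE, adjusted p = 0.048). That call ended without any 1 of 10 libraries, all but p110g-/- M-CSF number 1 and WT IFNg/LPS number 1, with adjusted p of 0.051 to 0.12. Without the library labelled p110g-/- IFNg/LPS number 1 the interaction was 2.85 (adjusted p = 0.075). It also ended with edgeR on recovered reads (adjusted p = 0.14).

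The other cytokines named did not pass in the fit of all libraries. Tnf, the early cytokine of the LPS response, stood at 16198, 13235 and 12497 in WT and 21914, 27173 and 24018 in p110g-/- IFNg/LPS, without overlap. The genotype effect of Tnf passed there (log2 0.805 ± 0.18 SE, adjusted p = 0.0072), and its interaction was 0.79 ± 0.25 (SE, adjusted p = 0.12). Il12a, the p35 chain of IL-12, was listed at 0 to 3.1 in M-CSF and stood at 119.6, 16.8 and 22.1 in WT and 583, 99.7 and 134 in p110g-/- IFNg/LPS. Il6 was listed at 0 to 3.2 in M-CSF and did not pass (adjusted p = 0.56), and Il1b, a cytokine released by inflammasomes, had an interaction of 1.20 ± 0.81 (SE, adjusted p = 0.49). In both, the libraries numbered 1 of the IFNg/LPS groups stood above the others of their group, with Il1b at 91812, 22987 and 30911 in WT and 260392, 85032 and 98981 in p110g-/- cells. Il10, the anti-inflammatory cytokine, had lower libraries in p110g-/- cells under both stimuli, at 205, 85.6 and 63.9 against 21.8, 9.8 and 36.1 in M-CSF and 4677, 1705 and 1740.4 against 1557, 200.3 and 518 in IFNg/LPS. Its interaction was 0.19 ± 0.94 (SE, adjusted p = 0.95), and it turned to -0.57 without the library labelled p110g-/- IFNg/LPS number 1. Without that library Tnf and Il6 did not pass either (adjusted p = 0.097 and 0.77). With the libraries numbered 2 and 3 only, Tnf passed at 1.07 (adjusted p = 0.0038) and Il6 at 2.13 (adjusted p = 0.0068). In that fit Il12a, Il1b and Il10 did not pass (adjusted p = 0.14, 0.68 and 0.74).

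No member passed among 23 chemokines (median 0.02), 17 chemoattractant receptors (-0.28) or 21 NF-kB subunits and feedback genes (0.14), where 2.44% of all genes passed. The receptors Ccr7, which guides cells to lymph nodes, and Cxcr3, which binds Cxcl9 to Cxcl11, had interactions of 2.91 ± 0.80 (SE, adjusted p = 0.066) and 2.26 ± 0.64 (SE, adjusted p = 0.073). Ccr7 stood at 3926, 1033 and 979 in WT and 19983, 9112 and 7189.7 in p110g-/- IFNg/LPS, and at 131, 108 and 135 and 304, 52.5 and 91.2 in M-CSF. With the libraries numbered 2 and 3 only, Ccr7 and Cxcr3 passed (adjusted p = 9.9e-05 and 0.006). Ccr7 is also the dendritic cell marker that carried the gap in the summed level of that list. Icosl, a co-stimulatory ligand for T cells, was the 1 of 17 co-stimulatory and checkpoint genes that passed, higher (5.88% against 1.02% of all genes). It stood at 803, 421 and 330.1 in WT and 2003, 1404 and 1141 in p110g-/- IFNg/LPS, at 479, 255 and 248 and 289.7, 176 and 169 in M-CSF, an interaction of 2.21 ± 0.50 (SE, adjusted p = 0.029). Its call ended without any 1 of 6 libraries, namely WT M-CSF number 1, p110g-/- M-CSF numbers 2 and 3, WT IFNg/LPS numbers 2 and 3 and p110g-/- IFNg/LPS number 2 (adjusted p 0.058 to 0.078). Cd40, Cd86 and Cd274, which encodes PD-L1, had interactions of 1.05, 0.32 and -0.49 and did not pass.

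In 4 lists of the interferon side of the response no gene passed, where 2.44% of all genes did, and nothing is read from that. These were 30 type I interferon-stimulated genes, 20 IFNg-induced GTPases and factors, 14 genes of MHC class II presentation and 19 of MHC class I presentation. With the libraries numbered 2 and 3 only (10.9% of all genes), 1 gene of the GTPase list passed lower. In that fit 1 class II gene passed higher and 1 lower, and 1 class I gene higher and 2 lower. With the replicate number as a block, 1 gene of the GTPase list and 1 class I gene passed higher, where 331 of all 15627 genes did. All 30 type I genes rose with IFNg/LPS in WT (36.3% of all genes), and their interaction was positive for 25 of 30 with a median of 0.36, which was -0.01 with the libraries numbered 2 and 3 only. The genotype medians were -0.26 in IFNg/LPS and -0.62 in M-CSF, and no member passed either. Rsad2, the antiviral protein viperin, was at 1097 to 5233 in WT M-CSF and 413 to 1114 in p110g-/- M-CSF, an interaction of 1.37 ± 0.67 (SE, adjusted p = 0.31). Iigp1, an immunity-related GTPase, was lower in p110g-/- M-CSF, at 60.9, 48.1 and 65.6 against 369.5, 213 and 146, and its interaction was 1.54 ± 0.41 (SE, adjusted p = 0.063). Cxcl9 and Cxcl10, chemokines induced by IFNg, had interactions of 0.004 and 1.40 (adjusted p = 1.0 and 0.41). H2-Ab1, a class II chain, Ciita, the master regulator of class II genes, and Ctss, the protease of the invariant chain, had interactions of 0.15, 0.42 and -0.59 and did not pass. Tyk2, a Janus kinase of the interferon and IL-12 receptors, was the 1 of 29 JAK-STAT genes that passed, higher (3.45% against 1.02% of all genes). Its interaction was 0.43 ± 0.091 (SE, adjusted p = 0.022), with 10884, 9946 and 9103 in WT and 12980.5, 14692 and 13700.2 in p110g-/- IFNg/LPS. That call ended without WT M-CSF number 3, p110g-/- M-CSF numbers 1 and 3, WT IFNg/LPS number 2 or p110g-/- IFNg/LPS number 2 (adjusted p 0.051 to 0.061).

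Among the lower genes, a group showed a strong rise with IFNg/LPS in WT that was much smaller in p110g-/- cells. Rgl1, an exchange factor that links Ras to Ral GTPases, stood at 3326, 2661 and 2739.8 in WT and 4111, 4163 and 4261 in p110g-/- cells with M-CSF alone, and at 29006, 26278 and 26895 in WT IFNg/LPS and 8818, 7919 and 9673 in p110g-/- IFNg/LPS. It was higher in p110g-/- cells in M-CSF (log2 0.53 ± 0.11 SE, adjusted p = 0.015) and lower in IFNg/LPS (log2 -1.64 ± 0.11 SE, adjusted p = 1.3e-07), an interaction of -2.17 ± 0.16 (SE, adjusted p = 3.6e-06). Timp1, an inhibitor of matrix metalloproteinases, stood in M-CSF at 72.2, 61.2 and 45.5 for WT and 115, 71.0 and 99.8 for p110g-/- cells, and in IFNg/LPS at 2079, 2411 and 3405 for WT and 483, 350.2 and 536 for p110g-/- cells. It rose by 5.43 in WT and by 2.25 in p110g-/- cells, an interaction of -3.18 ± 0.45 (SE, adjusted p = 0.0022). Serpinb2, the plasminogen activator inhibitor PAI-2, stood at 9.2, 11.4 and 13.0 in WT and 26.4, 24.0 and 27.6 in p110g-/- cells with M-CSF alone, and at 846, 575 and 619 in WT IFNg/LPS and 219.8, 54.1 and 103 in p110g-/- IFNg/LPS. Its groups did not overlap under either stimulus, in opposite order, and the interaction was -3.79 ± 0.59 (SE, adjusted p = 0.0037).

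Cysltr2, the second receptor for cysteinyl leukotrienes, had the largest negative interaction among genes with every group above the signal of 3 reads. It was already lower in p110g-/- M-CSF, at 10.3, 13.1 and 20.0 against 69.1, 60.3 and 62.8 in WT. It rose in WT with IFNg/LPS to 1764, 1048 and 936 (log2 4.21 ± 0.29 SE, adjusted p = 3.1e-09) and stood at 12.8, 7.6 and 15.6 in p110g-/- IFNg/LPS, where the response did not pass (log2 -0.26 ± 0.29 SE, adjusted p = 0.44). The interaction was -4.46 ± 0.41 (SE, adjusted p = 3.3e-05). Gm9199, a gene model that overlaps Cysltr2 in the annotation, rose in WT too but fell in p110g-/- cells (log2 -1.09 ± 0.23 SE, adjusted p = 0.00052), an interaction of -3.69 ± 0.33 (SE, adjusted p = 2.2e-05), and reads of the overlapping pair cannot be told apart.

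Csrp1, a LIM domain protein of the actin cytoskeleton, responded in opposite directions. It stood in M-CSF at 5229.9, 3491 and 3738 for WT and 4319, 4136 and 4255 for p110g-/- cells, and in IFNg/LPS at 11464, 13834 and 12666 for WT and 1483, 2249 and 2153 for p110g-/- cells. The M-CSF groups overlap, while with IFNg/LPS the WT libraries were the highest of the 12 and the p110g-/- libraries the lowest. Csrp1 rose in WT (log2 1.63 ± 0.16 SE, adjusted p = 1.5e-07) and fell in p110g-/- cells (log2 -1.13 ± 0.16 SE, adjusted p = 8.7e-06), an interaction of -2.76 ± 0.22 (SE, adjusted p = 7.3e-06). March1, a ubiquitin ligase that removes MHC class II and CD86 from the cell surface, stood at 16948, 15642 and 17151 in WT and 7861, 4238 and 6059 in p110g-/- IFNg/LPS, an interaction of -1.77 ± 0.21 (SE, adjusted p = 0.00041). Its M-CSF levels were 6048, 5267 and 5716 in WT and 6587, 7106 and 6861 in p110g-/- cells. B4galt5, a galactosyltransferase of glycolipid synthesis, was higher in p110g-/- M-CSF and lower in p110g-/- IFNg/LPS, each without overlap, an interaction of -0.85 ± 0.083 (SE, adjusted p = 6.0e-05).

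Further lower genes parted in other ways. Mbnl1, a regulator of alternative splicing, fell with IFNg/LPS in both genotypes, to 10888, 11901 and 11426 in WT and 5844, 5260.3 and 5964 in p110g-/- cells, an interaction of -0.94 ± 0.11 (SE, adjusted p = 0.00036). Rnf149, a membrane ubiquitin ligase, differed in M-CSF, at 13595, 12943 and 13933 in WT and 22303, 23225 and 25204 in p110g-/- cells, while the genotype effect in IFNg/LPS was -0.16 ± 0.083 (SE, adjusted p = 0.21). Its interaction was -0.97 ± 0.12 (SE, adjusted p = 0.00054). H60a, a ligand of the NKG2D receptor, was far higher in p110g-/- cells under both stimuli. It stood in M-CSF at 63.0, 63.8 and 61.7 for WT and 3752, 3452 and 3214 for p110g-/- cells, and in IFNg/LPS at 145, 134 and 133 for WT and 2546, 2576 and 2937 for p110g-/- cells, an interaction of -1.49 ± 0.14 (SE, adjusted p = 3.4e-05). Whether the gap in H60a comes from the loss of p110gamma was not tested. Its likeness to related genes was not measured, so any sharing of reads with them is uncertain. Nxpe5 stood in M-CSF at 1622, 1366 and 1466 for WT and 261, 510.4 and 1793 for p110g-/- cells, and in IFNg/LPS at 82.7, 120.4 and 145 for WT and 8.1, 5.7 and 5.8 for p110g-/- cells. Its p110g-/- M-CSF libraries were spread, and the interaction of -2.68 ± 0.66 (SE, adjusted p = 0.042) ended without any 1 of 8 libraries, all but numbers 1 and 3 of p110g-/- M-CSF and number 1 of both IFNg/LPS groups (adjusted p 0.062 to 0.097).

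**Figure D3:**
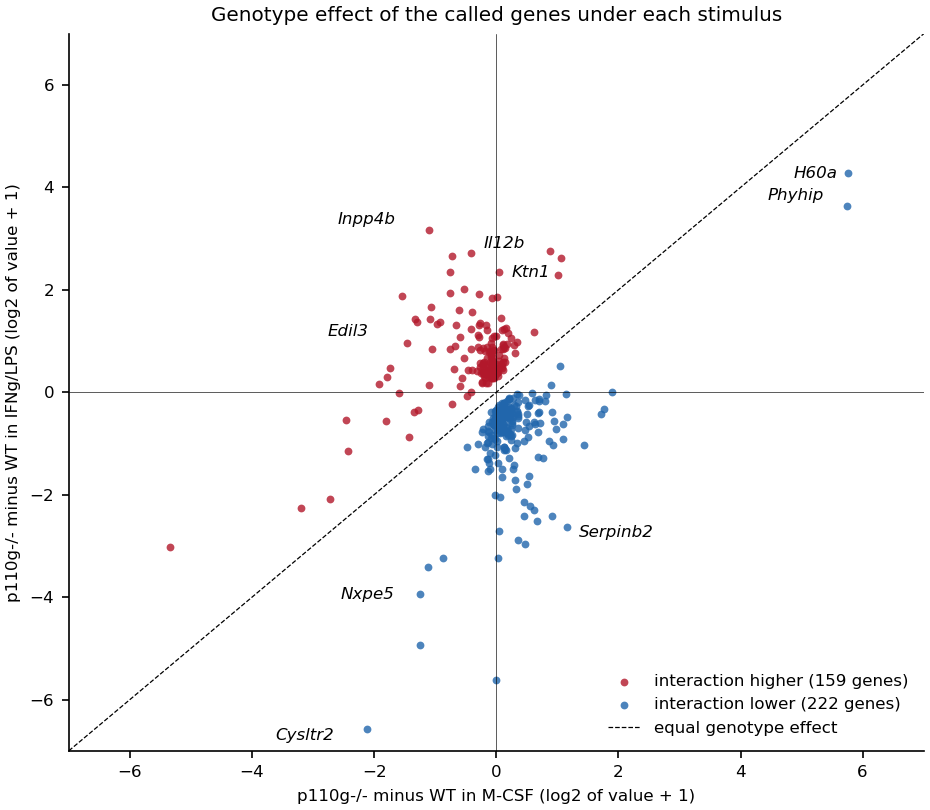
Genotype effect (p110g-/- minus WT, log2 of signal + 1) in M-CSF on the x axis and in IFNg/LPS on the y axis, for the 381 genes that passed the interaction, 159 higher in red and 222 lower in blue, with the line of equal effects dashed. Most points lie near 0 on the x axis and away from 0 on the y axis, while H60a lies far from 0 on both.

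Lipid handling genes gave 3 of the lower calls. Of 28 tested genes of LXR targets, PPARg and lipid handling, Pparg, Plin2 and Nr1h3 passed lower (10.7% against 1.42% of all genes), with a list median of -0.16. Pparg, the nuclear receptor for fatty acid ligands, stood in M-CSF at 3923, 5136 and 5149 for WT and 4496, 5217 and 5038 for p110g-/- cells, and in IFNg/LPS at 208, 442 and 498 for WT and 47.7, 107 and 124 for p110g-/- cells. It fell in both genotypes and further in p110g-/- cells, an interaction of -2.11 ± 0.44 (SE, adjusted p = 0.02). Plin2, the coat protein of lipid droplets, overlapped its M-CSF levels in WT, at 52236, 48145 and 51661, and stood at 28851, 15676 and 19126 in p110g-/- IFNg/LPS, an interaction of -1.15 ± 0.24 (SE, adjusted p = 0.019). The annotation places another gene model, LOC101055843, over Plin2, and that model passed lower too. Nr1h3, which encodes LXR alpha, stood at 6193, 5228 and 6871 in WT and 4681, 3964 and 4636 in p110g-/- IFNg/LPS, an interaction of -0.81 ± 0.18 (SE, adjusted p = 0.032). The call of Pparg ended without p110g-/- M-CSF number 2 or WT IFNg/LPS number 2 (adjusted p 0.053 and 0.054) and that of Plin2 without p110g-/- M-CSF number 2 or 3 (adjusted p = 0.053). That of Nr1h3 ended without any of the 3 WT M-CSF libraries, p110g-/- M-CSF numbers 2 and 3, WT IFNg/LPS number 3 or p110g-/- IFNg/LPS number 2 (adjusted p 0.053 to 0.082).

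On the sterol side, Stard4, a carrier of cholesterol between membranes, was the 1 of 23 sterol synthesis genes that passed, higher (4.35% against 1.02% of all genes). It stood in M-CSF at 783, 532 and 478 for WT and 1421, 1093 and 1049.9 for p110g-/- cells, and in IFNg/LPS at 114, 108 and 107 for WT and 536, 511 and 583 for p110g-/- cells. It was higher in p110g-/- cells under both stimuli, by 1.01 and by 2.29, and the interaction was 1.28 ± 0.21 (SE, adjusted p = 0.0051).

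In the lysosome list the interaction was negative for 32 of 36 genes with a median of -0.29, or -0.17 without the library labelled p110g-/- IFNg/LPS number 1. Lgmn alone passed, lower (2.78% against 1.42% of all genes). Lgmn, the asparaginyl endopeptidase legumain, stood at 65238, 78236 and 73153 in WT and 40201, 36102 and 34894 in p110g-/- IFNg/LPS and at 84584, 86878 and 92444 and 68586, 83466 and 90088 in M-CSF, an interaction of -0.83 ± 0.17 (SE, adjusted p = 0.022). That call ended without WT M-CSF number 2, p110g-/- M-CSF numbers 2 and 3, WT IFNg/LPS number 2 or p110g-/- IFNg/LPS number 2 (adjusted p 0.055 to 0.063). In the list of DNA replication and mitosis the interaction was positive for 29 of 30 genes with a median of 0.55, or 0.17 with the libraries numbered 2 and 3 only. Mcm6, a subunit of the replicative helicase, alone passed, higher (3.33% against 1.02% of all genes). Mcm6 stood in M-CSF at 2942, 3494 and 2738 for WT and 1904, 2373 and 2368 for p110g-/- cells, and in IFNg/LPS at 906, 930.0 and 959 for WT and 1294, 1227 and 1281 for p110g-/- cells, an interaction of 0.91 ± 0.22 (SE, adjusted p = 0.041). Its call ended without any 1 of the 12 libraries (adjusted p 0.051 to 0.11). The list's genotype medians were -0.70 in M-CSF and -0.16 in IFNg/LPS, and 25 of the 30 genes fell with IFNg/LPS in WT (37.5% of all genes).

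Further lists gave 1 or 2 calls each, and from a single call nothing is read about a list. Of 27 genes for matrix proteases, integrins and adhesion, Timp1 and the matrix metalloproteinase Mmp19 passed lower (7.41% against 1.42% of all genes). Mmp19 had an interaction of -0.84 ± 0.19 (SE, adjusted p = 0.029), and its call ended without any 1 of 7 libraries, all but number 1 of p110g-/- M-CSF and WT IFNg/LPS and the 3 of p110g-/- IFNg/LPS (adjusted p 0.05 to 0.076). Of 29 genes for alternative activation and repair, Thbs1, the matrix protein thrombospondin 1, passed higher (3.45% against 1.02% of all genes). It stood at 58048, 42056 and 44270.1 in WT and 145195, 112639 and 100415 in p110g-/- IFNg/LPS. Its interaction was 1.48 ± 0.33 (SE, adjusted p = 0.029) and ended without WT M-CSF number 3, p110g-/- M-CSF number 2 or 3, WT IFNg/LPS number 2 or 3 or p110g-/- IFNg/LPS number 2 (adjusted p 0.058 to 0.072). Arg1, the arginase of alternative activation, was listed at 0 to 2.6 in M-CSF and stood at 551, 593 and 518 in WT and 104, 74.0 and 77.0 in p110g-/- IFNg/LPS. Its interaction did not pass (adjusted p = 0.056), nor did that of Nos2, the inducible nitric oxide synthase, at 191041 to 272141 in WT and 206623 to 303567 in p110g-/- IFNg/LPS.

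Nr4a2, an orphan nuclear receptor, passed higher as 1 of 26 MAP kinase phosphatase and immediate early genes (3.85% against 1.02% of all genes). Its interaction was 1.61 ± 0.39 (SE, adjusted p = 0.039), with 127, 96.2 and 79.0 in WT and 255, 309 and 206 in p110g-/- IFNg/LPS. Its call ended without any 1 of 9 libraries, all but WT M-CSF number 1, WT IFNg/LPS number 1 and p110g-/- IFNg/LPS number 3 (adjusted p 0.053 to 0.1). Pfkm, a phosphofructokinase, passed higher as 1 of 29 glycolysis and hypoxia genes (3.45% against 1.02% of all genes), at 0.57 ± 0.14 (SE, adjusted p = 0.039). That call ended without any 1 of 9 libraries, all but WT IFNg/LPS numbers 1 and 3 and p110g-/- IFNg/LPS number 1 (adjusted p 0.066 to 0.095). Tfrc, the transferrin receptor, passed higher as 1 of 25 NRF2 and iron genes (4.0% against 1.02% of all genes), at 0.84 ± 0.21 (SE, adjusted p = 0.046). The call of Tfrc ended without any 1 of the 12 libraries (adjusted p 0.056 to 0.11). Herpud1, a membrane protein of endoplasmic reticulum-associated degradation, passed lower as 1 of 31 stress genes (3.23% against 1.42% of all genes). Its interaction was -1.06 ± 0.19 (SE, adjusted p = 0.0089), with 1876, 1488 and 1670.3 and 2408, 2699 and 1962 in WT and p110g-/- M-CSF and 726, 675 and 679 and 558, 434 and 415 in IFNg/LPS.

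Counted over all 32 pathway lists, 24 of the 788 tested genes passed, 12 in each direction, or 3.05% against 2.44% of all genes. Without the library labelled p110g-/- IFNg/LPS number 1 there were 30, 9 higher and 21 lower, or 3.81% against 3.37% of all genes. With the libraries numbered 2 and 3 only there were 163, 66 higher and 97 lower, or 20.7% against 10.9%. A member passed in 16 lists and none in the other 16. The lists without a call include Akt and mTOR regulators (24 genes, median 0.02), macrophage transcription factors (27, -0.16), the TCA cycle (21, 0.07), complement and scavenger receptors (28, -0.24), ribosomal proteins (28, -0.03) and oxidative phosphorylation (28, -0.03). With values under the signal of 3 reads raised to it, the median of any pathway list moved by at most 0.02. It moved by at most 0.30 without the library labelled p110g-/- IFNg/LPS number 1 and by at most 0.38 with the libraries numbered 2 and 3 only.

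**Figure D4:**
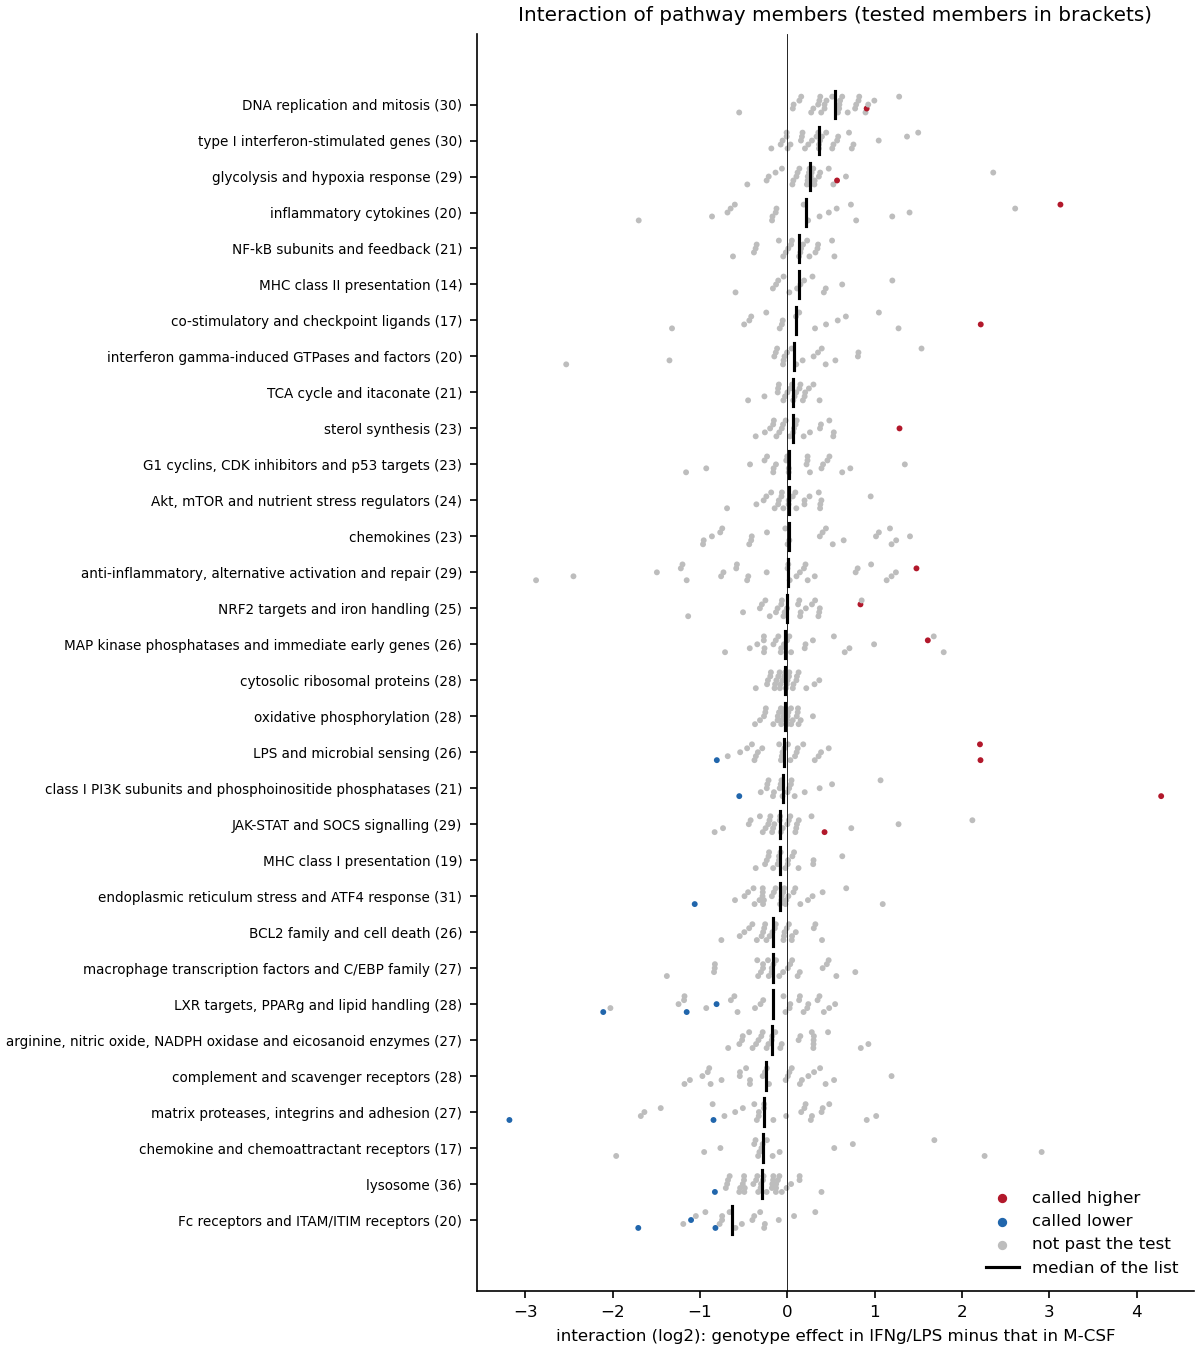
Interaction (log2) of every tested member of the 32 pathway lists, 1 row per list, with the median as a bar and the members that passed in red (higher) or blue (lower). The medians run from -0.63 for Fc and ITAM/ITIM receptors to 0.55 for DNA replication and mitosis, beside 0.004 over all genes.

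Inhibitory and activating surface receptors were the pathway list with the lowest median. Beside receptors of the immunoglobulin superfamily, the list holds C-type lectins and the partner chains Tyrobp and Fcer1g. These receptors signal through tyrosine motifs, either their own inhibitory ITIM or the activating ITAM of the partners DAP12 (Tyrobp) and the Fc receptor gamma chain (Fcer1g). In the list of 20 Fc and ITAM/ITIM receptor genes the median was -0.63 (all genes 0.004), 18 were negative, and Cd300ld, Lilrb3 and Pira1 passed lower (15.0% against 1.42% of all genes). The list's genotype medians were 0.08 in M-CSF and -0.59 in IFNg/LPS, and 11 members passed lower in IFNg/LPS (7.79% of all genes) and none in M-CSF (1.27%). Without the library labelled p110g-/- IFNg/LPS number 1, 7 members passed lower in the interaction, where 291 of all 15627 genes did.

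Several members of 3 families of such receptors stood next to each other among the genes that passed. In the gene order of the annotation (GRCm38.p6, with 14803 tested genes and 370 of the 381 placed), 66 genes formed 27 runs of 2 or more neighbours that passed, 24 of them in 1 direction and 9 with overlapping genes. The 3 longest runs were 7 genes of the paired Ig-like and leukocyte Ig-like receptors (PIR and LILR), 5 of the signal regulatory protein beta (SIRP beta) receptors and 4 of the CD300 receptors. The families were chosen for display after their values were seen, unnamed gene models of the runs were counted with them, and nothing is tested on them. Against the counts below, 1.42% of all genes passed lower, and from that comparison nothing is read, since the gene models were added with their calls known. Some members of a family are near-identical copies or overlap, and reads that they share may be split between them, so members are not independent. Likeness was measured only upstream of SIRP beta and of PIR and LILR members, and not for CD300. How such reads were assigned, and whether strand was used, is not given in the sources used here.

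Sequences just upstream of the annotated starts show how alike the copies are. The 250 bases before the start are given below, 5′ to 3′ on the gene's own minus strand, from RefSeq tables of build GRCm38.p6, for 4 SIRP beta members (Sirpb1a at chr3:15426428-15426677, Sirpb1b at chr3:15575066-15575315, LOC100038947, which RefSeq names Sirpb1c, at chr3:15848488-15848737, Gm5150 at chr3:16006333-16006582) and 2 PIR and LILR members (Lilrb3, which RefSeq names Pirb, at chr7:3720383-3720632, Pira1 at chr7:3739918-3740167). Capitals mark matches on either strand to the letters of an interferon-stimulated response element (GAAANNGAA) or a gamma-activated site (TTCNNNGAA).
Sirpb1a: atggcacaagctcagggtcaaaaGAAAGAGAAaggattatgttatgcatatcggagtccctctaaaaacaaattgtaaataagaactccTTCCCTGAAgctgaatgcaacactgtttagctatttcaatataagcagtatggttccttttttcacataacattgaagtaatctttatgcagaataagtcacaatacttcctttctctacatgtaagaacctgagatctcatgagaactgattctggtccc
Sirpb1b: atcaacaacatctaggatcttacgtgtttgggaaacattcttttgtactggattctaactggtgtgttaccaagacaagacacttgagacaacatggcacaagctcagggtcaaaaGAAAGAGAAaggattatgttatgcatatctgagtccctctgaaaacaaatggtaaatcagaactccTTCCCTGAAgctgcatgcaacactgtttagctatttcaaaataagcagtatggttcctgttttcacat
LOC100038947: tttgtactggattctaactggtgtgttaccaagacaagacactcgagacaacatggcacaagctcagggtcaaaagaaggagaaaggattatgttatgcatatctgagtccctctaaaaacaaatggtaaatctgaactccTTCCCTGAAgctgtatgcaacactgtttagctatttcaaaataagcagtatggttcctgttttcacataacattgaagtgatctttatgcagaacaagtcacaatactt
Gm5150: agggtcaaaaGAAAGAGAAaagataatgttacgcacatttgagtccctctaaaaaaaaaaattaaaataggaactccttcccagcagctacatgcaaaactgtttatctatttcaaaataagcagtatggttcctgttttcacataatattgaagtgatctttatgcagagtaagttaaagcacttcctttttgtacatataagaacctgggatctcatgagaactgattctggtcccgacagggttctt
Lilrb3: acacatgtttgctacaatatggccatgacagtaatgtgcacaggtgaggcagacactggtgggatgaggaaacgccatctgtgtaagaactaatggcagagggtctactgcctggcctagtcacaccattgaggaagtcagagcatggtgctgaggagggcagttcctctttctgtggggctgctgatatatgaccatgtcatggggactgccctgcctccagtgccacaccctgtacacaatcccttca
Pira1: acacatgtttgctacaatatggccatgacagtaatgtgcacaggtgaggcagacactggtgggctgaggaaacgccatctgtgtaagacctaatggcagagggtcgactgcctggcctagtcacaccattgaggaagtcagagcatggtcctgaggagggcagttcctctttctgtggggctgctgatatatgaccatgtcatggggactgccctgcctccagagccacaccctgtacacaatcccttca
The 2 lines for Lilrb3 and Pira1 share 98.0% of 250 aligned bases, and the 6 pairs of SIRP beta members 86.1 to 97.6% of 146 to 241 aligned bases, since their annotated starts are offset. Between these 2 lines and the 4 SIRP beta lines the share was 54.5 to 56.3%. A match of letters is a description and not a binding site.

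The 5 SIRP beta genes tested, Sirpb1a, Sirpb1b, LOC100038947, Gm5150 and Gm9733, passed lower (1.42% of all genes), with interactions of -3.26 to -2.61 and a median of -2.87. In a fit of the 12 libraries only, the calls of Gm5150 and Gm9733 ended. SIRP beta receptors pair with DAP12 and activate myeloid cells. Sirpb1a stood in M-CSF at 718, 382 and 460.1 for WT and 831, 628 and 879.8 for p110g-/- cells, and in IFNg/LPS at 1631, 1864 and 2419 for WT and 573, 192 and 551 for p110g-/- cells. The M-CSF groups overlap, and with IFNg/LPS the WT libraries were the highest of the 12. Sirpb1a rose in WT (log2 1.95 ± 0.33 SE, adjusted p = 5.7e-05) and fell in p110g-/- cells (log2 -0.97 ± 0.33 SE, adjusted p = 0.014), an interaction of -2.93 ± 0.46 (SE, adjusted p = 0.0038) that was -3.20 without the library labelled p110g-/- IFNg/LPS number 1. LOC100038947 and Sirpb1b had interactions of -2.77 ± 0.43 (SE, adjusted p = 0.0036) and -2.61 ± 0.42 (SE, adjusted p = 0.0045). Gm5150 was more spread, at 528, 61.7 and 189 in p110g-/- IFNg/LPS against 1874, 1494 and 1846 in WT, and its interaction of -3.26 ± 0.75 (SE, adjusted p = 0.032) ended without any 1 of 8 libraries, all but number 1 of p110g-/- M-CSF and WT IFNg/LPS and numbers 1 and 2 of p110g-/- IFNg/LPS (adjusted p 0.053 to 0.081). Gm9733, at low level with 25.1, 35.5 and 53.7 in WT and 8.1, 3.8 and 6.8 in p110g-/- IFNg/LPS, had an interaction of -2.87 ± 0.68 (SE, adjusted p = 0.038) that ended without any 1 of 8 libraries, all but number 1 of WT M-CSF, WT IFNg/LPS and p110g-/- IFNg/LPS and number 2 of p110g-/- M-CSF (adjusted p 0.054 to 0.099). Sirpa, the inhibitory receptor for CD47 and a member of the list above, had an interaction of -0.52 ± 0.16 (SE, adjusted p = 0.1).

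Of 13 PIR and LILR genes tested, 11 passed lower (1.42% of all genes), with interactions of -1.33 to -0.82, and Lilra5 (0.26) and Lilrb4 (-0.38) did not pass. Of these calls 7 ended without p110g-/- IFNg/LPS number 2 (adjusted p 0.051 to 0.078), 5 of them also without other libraries, and the same 7 ended in a fit of the 12 libraries only, while 4 held whichever library was left out. Lilrb3, the inhibitory receptor PIR-B, stood in M-CSF at 32470.1, 24393 and 27552 for WT and 30328, 28874 and 31032 for p110g-/- cells, and in IFNg/LPS at 60626, 58663 and 59902 for WT and 39608, 33694 and 35993 for p110g-/- cells. It rose in both genotypes, by 1.10 in WT and 0.27 in p110g-/- cells, an interaction of -0.82 ± 0.13 (SE, adjusted p = 0.0032). Pira1, an activating receptor that pairs with the Fc receptor gamma chain, stood at 8798, 7432 and 7798 in WT and 4954, 4119 and 4361 in p110g-/- IFNg/LPS, an interaction of -1.10 ± 0.20 (SE, adjusted p = 0.011).

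Of 11 CD300 genes tested, 6 passed lower (1.42% of all genes), with interactions of -1.71 to -0.74. The run of 4 among them, Gm11710, Gm11709, Gm11711 and Cd300lh, holds genes that overlap in the annotation, where reads cannot be told apart. The call of Cd300lh ended without any 1 of 4 libraries (adjusted p 0.056 to 0.065). In a fit of the 12 libraries only, 3 of the 6 calls ended. Cd300ld, an activating receptor, stood in M-CSF at 19762, 22318 and 22138 for WT and 23266, 27593 and 27864 for p110g-/- cells, and in IFNg/LPS at 4193, 4001 and 4615 for WT and 1438, 1434 and 1984 for p110g-/- cells. It fell in both genotypes and further in p110g-/- cells, an interaction of -1.71 ± 0.20 (SE, adjusted p = 0.00041). Cd300lf, an inhibitory receptor, rose in both genotypes and passed at -0.74 ± 0.19 (SE, adjusted p = 0.049), a call that ended without any 1 of 9 libraries, all but WT M-CSF number 1, WT IFNg/LPS number 3 and p110g-/- IFNg/LPS number 1 (adjusted p 0.058 to 0.12). Cd300a, also inhibitory, had an interaction of -0.40 ± 0.13 (SE, adjusted p = 0.12).

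**Figure D5:**
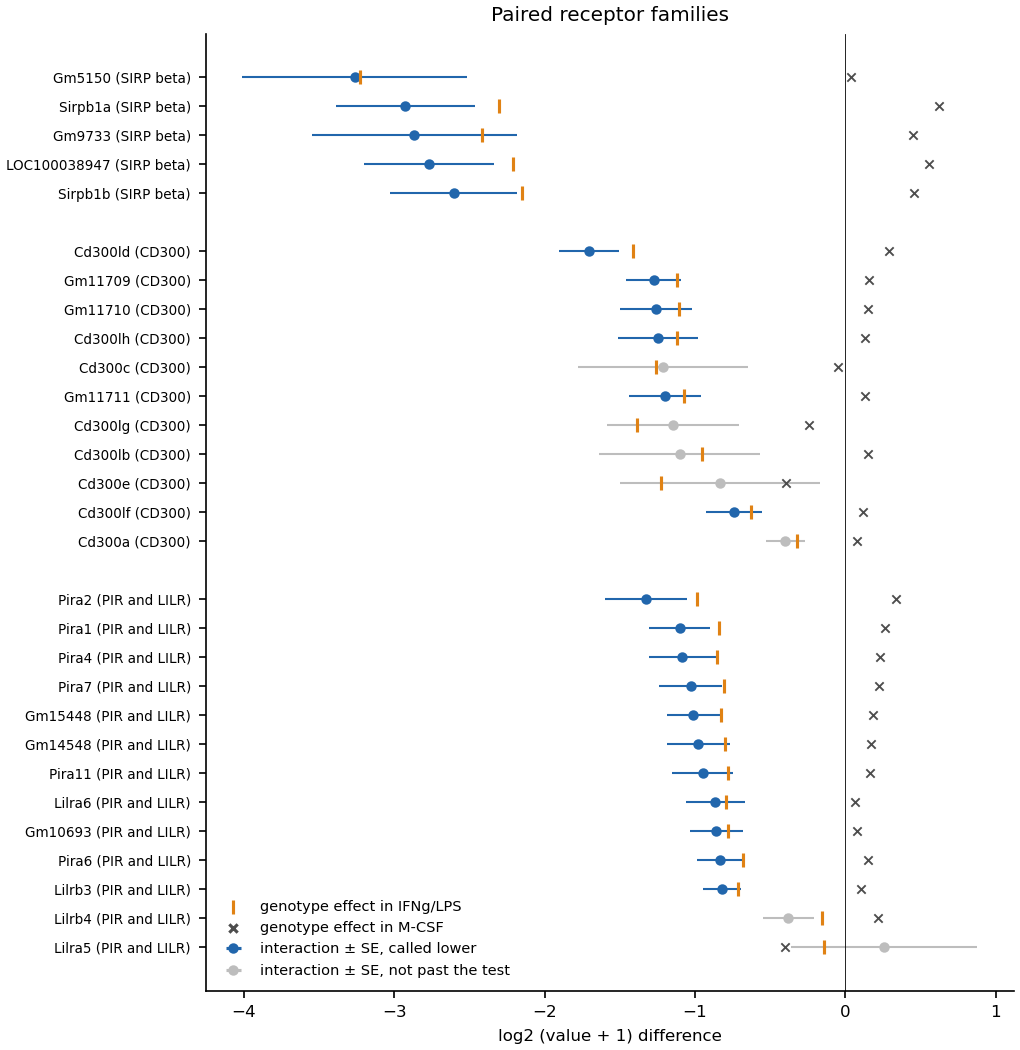
Interaction (log2, point) with its SE (line) for each tested member of the SIRP beta, CD300, and PIR and LILR families, blue where it passed lower and grey where it did not, beside the genotype effect in IFNg/LPS (tick) and in M-CSF (cross). The 5 SIRP beta genes lie between -3.26 and -2.61, the 11 PIR and LILR genes that passed between -1.33 and -0.82 and the 6 CD300 genes that passed between -1.71 and -0.74.

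Other runs were short and mixed in kind. Rgl1, Apobec4 and Arpc5, which encodes a subunit of the actin-nucleating Arp2/3 complex, passed lower, with Apobec4 overlapping Rgl1 and listed at 0 in all 6 M-CSF libraries. Cd14 stood between E230025N22Rik and Tmco6, which passed higher with it. Apbb3, also higher, lay close by, parted from E230025N22Rik by Slc35a4, which did not pass (0.25, adjusted p = 0.33). Cysltr2 with Gm9199, Plin2 with LOC101055843 and Timp1 with Syn1 are overlapping pairs. Apart from overlaps, neighbours that passed in 1 direction included Mcm6 with Dars and Cyp4f18 with Zfp961.

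The letters of 9 motifs were searched on both strands of the RefSeq promoters, 250 bases before to 50 after the start, for 14465 promoters of 11494 tested genes. The NF-kB letters GGGANTTTC stood in 1.11% of all promoters, 1.31% of those of the higher genes and 0.862% of those of the lower genes. The interferon-stimulated response element GAAANNGAA stood in 7.49%, 7.84% and 9.05%, and the gamma-activated site TTCNNNGAA in 7.01%, 2.61% and 7.76%. The C/EBP letters TTGCNNAA stood in 9.06%, 9.15% and 12.5%, and the E-box CACGTG in 9.50%, 13.1% and 10.8%. AP-1 (TGANTCA), the cyclic AMP element (TGACGTCA), the forkhead letters (GTAAACA) and the TATA box (TATAAA) stood in 5.70%, 2.90%, 2.68% and 8.03% of all promoters. Among promoters of the higher genes they stood in 3.92%, 2.61%, 2.61% and 8.50%, and among those of the lower genes in 5.60%, 3.02%, 2.59% and 9.91%. The higher set held 153 promoters of 123 genes and the lower set 232 promoters of 176 genes, near-identical family members included, and the shares were not tested.

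A last set of genes responded in opposite directions, with both responses past the test. They numbered 52, 23 higher and 29 lower in the interaction. Besides Inpp4b, Edil3, Tspan33, Fam32a and Itpr2, the higher ones included Blnk, an adaptor that couples Syk to phospholipase C, and Phldb1. Besides Csrp1, Sirpb1a, H60a, Pira1 and Inpp4a, the lower ones included Fgr, a Src family kinase of myeloid cells, Ptpn1, the tyrosine phosphatase PTP1B, Litaf, a late endosomal protein, and the deacetylase Sirt1. Fgr, Blnk, Phldb1, Ptpn1, Litaf and Sirt1 were picked from the 52 after their values were seen. Fgr fell by 0.60 in p110g-/- cells and rose by 0.86 in WT, an interaction of -1.46 ± 0.28 (SE, adjusted p = 0.013). Blnk rose by 0.37 in p110g-/- cells and fell by 0.34 in WT, an interaction of 0.71 ± 0.14 (SE, adjusted p = 0.014).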

How the data were processed

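Gene signal was read from 1 deposited table of 16474 genes in 18 libraries, all of whose sample columns matched the labels. Per the submitters' processing notes, CASAVA 1.8.2, Bowtie2 and DESeq were used with genome build mm9; the counting method and strand handling are not given in the sources used here. The deposited signal is a count of reads scaled by a single factor in each library, with 1 decimal: 100.0% of values were whole multiples of 1 step to within 0.1, so whole reads were recovered, 40.1 to 69.6 M per library in the 12 libraries compared.

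The test was limma 3.58.1 (R 4.3.3, trend and robust) on log2(value + 1), as 6 group means over 18 libraries (12 residual degrees of freedom), for genes that reached 10 in 3 or more libraries. A fold change on this scale understates that of low genes. P-values were adjusted by Benjamini-Hochberg over all genes tested, at 0.05. Alternatives were limma with other filters (50, over the 12 libraries, or none), pseudocounts (0.5 and 10), scalings, variance settings and libraries, the replicate number as a block, and, on recovered reads, edgeR 4.0.16 and DESeq2 1.42.0. edgeR passed 354 genes and DESeq2 892. The scripts were tested on simulated data. Figures used matplotlib 3.10.9.

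Named genes were the 10 smallest p and 10 largest interactions per direction (mean of at least 100 in 1 group), 27 fixed genes, and list members that passed, with up to 2 further members per list. The members and lists were chosen with earlier results of these data known. Gene order and promoter sequences came from RefSeq (GRCm38.p6), matched by gene identifier: 14803 of the 15627 tested genes were placed and 11494 had a promoter. Counting error limits genes near 3 reads.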

Additional observations from a re-analysis of the deposited data

Results flagged for a closer look

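By the test of the interaction, the genotype effect differed between the stimuli for 381 genes, and those named for size or p are gathered here. Among kinases, phosphatases and signalling proteins the interactions were 4.28 for the phosphatase Inpp4b, 1.37 for Tagap1, 0.81 for Itpr2, 2.73 for Atp2b4, 2.77 for Htr2a, -2.17 for Rgl1 and -4.46 for Cysltr2, with -3.69 for the overlapping Gm9199. Among surface receptors of the immunoglobulin superfamily they were -2.93 for Sirpb1a, -2.61 for Sirpb1b, -2.77 for LOC100038947, -3.26 for Gm5150 and -1.70 for Cd300ld. Among secreted proteins they were 3.13 for Il12b, 2.54 for Igfbp4, 2.41 for Edil3, -3.18 for Timp1 and -3.79 for Serpinb2.

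Genes of transcription, splicing and translation had 1.09 for Fam32a, 0.82 for Chd9, 0.81 for Foxp4, 0.69 for Denr and -0.94 for Mbnl1. Scaffold, membrane and cytoskeletal genes had 2.30 for Ktn1, 1.85 for Apbb3, 2.70 for Ppfia3, 2.52 for Tspan33 and -2.76 for Csrp1. Enzymes and ubiquitin ligases had 2.32 for Cyp4f18, -0.85 for B4galt5, -1.77 for March1 and -0.97 for Rnf149, and the remaining genes -1.49 for H60a and -2.68 for Nxpe5. The calls of Il12b, Htr2a, Atp2b4, Gm5150 and Nxpe5 ended when 1 of 8 or more libraries was left out.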

How the results depend on the processing

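The number of genes that passed the interaction, 381, was 211 with a fit of the 12 libraries only, 892 with DESeq2 (2732 genes had no adjusted p) and 1708 with the libraries numbered 2 and 3 only, where a group holds 2 libraries. Leaving out 1 library gave 183 to 633. With the replicate number as a block it was 716, and all 381 were among them. Same-numbered libraries correlated at 0.002 to 0.546 between groups. Libraries numbered 1 and 2 correlated best with their own number in every pair of groups, and those numbered 3 not in every pair. The numbers were not taken as pairs in the main test, so any spread that they share stays in its error. For the genotype effect in M-CSF, 365 became 673 with DESeq2, 688 with numbers 2 and 3 only, 555 with the block and 239 to 430 without 1 library. The genotype effect in IFNg/LPS, 2303, became 4166 with numbers 2 and 3 only and 1466 to 2728 without 1 library. In this comparison each library correlated best with its own number (0.256 to 0.546). The same held for the WT response (0.162 to 0.256) and, at lower values, for the p110g-/- response (0.028 to 0.169). The block moved none of these counts by over 1.5 times. The responses gave 10919 to 11615 in WT and 10821 to 11564 in p110g-/- cells without 1 library. All other alternatives stayed within 1.5 times. TMM moved the median interaction of all genes by 0.01 and upper-quartile scaling by 0.015; the latter moved the median responses by -0.14 in WT and -0.13 in p110g-/- cells, where 4904 genes passed higher and 6552 lower.

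Of 54 named genes that passed, 35 kept the call in every setting and 19 lost it in at least 1, each without at least 1 library (179 of 1348 values), and none changed sign. Of 55 that did not pass, 33 passed in at least 1 setting, 26 of them with numbers 2 and 3 only and 10 with the block, and 5 changed sign. A fit of the 12 libraries only ended the calls of Il12b, Atp2b4, Gm5150, Nxpe5, Pparg and Plin2. It also ended those of Tlr5, Tlr8, Icosl, Pfkm and Tyk2 (adjusted p 0.07 to 0.13 for these and the former). With the block Ccr7, Arg1 and Iigp1 passed (adjusted p = 0.02, 0.024 and 0.042). Of the 17 chemoattractant receptors 2 then passed higher and 1 lower, where 331 and 385 of all 15627 genes did. Il10 turned to -0.51 with numbers 2 and 3 only, -0.21 with a pseudocount of 10, and ran from -0.57 to 0.91 without 1 library. Cxcl9 turned to -0.18 with DESeq2, -0.17 with edgeR, -0.19 with numbers 2 and 3 only and -0.12 with a pseudocount of 10, and ran from -0.45 to 0.50 without 1 library. Cd86, Tgfb1 and H2-Ab1 ran from -0.088 to 0.56, -0.12 to 0.17 and -0.14 to 0.47 without 1 library. The causes were not tested. The counts of list members and classes under left-out libraries were chosen after seeing the data. Depth limits genes near the signal of 3 reads.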
